A study of Homo sapiens with 6 samples.

Results

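Nucleoporins build the nuclear pore, and importins and exportins carry proteins and RNA through it. The genes described here were all protein-coding rows whose symbol starts with NUP and a number, or is a numbered KPNA, KPNB, IPO, XPO or TNPO symbol. The rule found 45 of the 32299 genes in the table, 22 of them nucleoporins and 23 transport carriers. The rule itself matched names and no measured value, but the members were chosen with earlier results of these data known.

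The cells were U87-GBM, an established human glioma cell line. The tested libraries, 3 in number and called tau-labelled here, are labelled as overexpressing tau, the microtubule-binding protein encoded by MAPT. The 3 control-labelled libraries are labelled as transfected with a control vector. Poly(A) RNA was sequenced from each. The labels name no tau isoform, no time after transfection and no separate cultures, so the p-values reflect only how far these libraries scatter, and that scatter may be technical.

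The nuclear pore is a ring-shaped channel made of many copies of each nucleoporin. A scaffold of Y-shaped complexes and an inner ring holds it in the membrane, and unfolded nucleoporin stretches rich in phenylalanine and glycine (FG) fill the channel. Importins bind cargo in the cytoplasm and release it when they meet the GTP form of the small GTPase Ran in the nucleus, whereas exportins bind cargo together with Ran-GTP and release it outside.

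The check of the targeted gene went against the labels. MAPT (chromosome 17, 45894527 to 46028334) averaged 0.156 ± 0.00879 FPKM in tau-labelled libraries and 0.333 ± 0.0653 FPKM in control-labelled libraries (SD, n = 3 each), a log2 fold change of -1.2 (SE 0.21, adjusted p = 0.00151 in edgeR's quasi-likelihood test). FPKM is fragments per kilobase of transcript, scaled to the library's mapped fragments. The labels do not give the sequence used to overexpress tau, and whether its reads would be counted in the MAPT row is not known here. Every direction below is therefore between libraries as labelled. Deposited counts summed to between 58229083 and 65512119 per library, and log2 CPM over tested genes correlated (Pearson) at 0.972 to 0.977 between libraries of one label and at 0.927 to 0.944 across labels. Of 11 glioma and astrocyte markers, 7 averaged at least 1 FPKM, 2 rose (VIM and EGFR) and 4 fell (NES, CHI3L1, TNC and GFAP). Their summed level, mostly VIM, ranged from 2020 to 2120 FPKM in tau-labelled and from 1810 to 1920 FPKM in control-labelled libraries. CHI3L1 averaged 45.6 FPKM in tau-labelled and 277 FPKM in control-labelled libraries and NES 2.95 FPKM in tau-labelled and 12.1 FPKM in control-labelled libraries, while GFAP averaged 0.0595 FPKM in tau-labelled and 0.136 FPKM in control-labelled libraries, and S100B and SOX2 had values of 0 in several libraries. All 10 proliferation markers rose, and their summed level ranged from 485 to 531 FPKM in tau-labelled and from 243 to 276 FPKM in control-labelled libraries. Summed epithelial markers ranged from 1.2 to 1.72 FPKM in tau-labelled and from 6.45 to 7.34 FPKM in control-labelled libraries, and summed leukocyte markers, mostly CD68, from 74.1 to 89.1 FPKM in tau-labelled and from 146 to 165 FPKM in control-labelled libraries. Summed endothelial markers ranged from 0.403 to 0.449 FPKM in tau-labelled and from 2.34 to 2.74 FPKM in control-labelled libraries, and summed neuron markers, mostly TUBB3, from 38.4 to 48.9 FPKM in tau-labelled and from 24.8 to 33.0 FPKM in control-labelled libraries. The part of these shifts in the results below was not tested.

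Most nucleoporin and carrier genes were higher in the tau-labelled libraries. A gene is said to have risen or fallen where edgeR's quasi-likelihood test gave a Benjamini-Hochberg adjusted p below 0.05 over all 17927 genes tested. Of the 45 members, 44 had enough reads to be tested, 30 rose, 1 fell and 13 did not pass. That is 68.2% of tested members rising, where 21.3% of all tested genes rose, and 2.27% falling, where 21.4% of all tested genes fell. Of the 13622 tested genes that code for protein, as all members do, 25.6% rose and 24.0% fell. The median log2 fold change was 0.69 over the members and 0.0044 over all genes. Over all genes 3822 rose and 3830 fell. Limma on log2(FPKM + 0.5) tested a smaller set of 11129 genes, those with a mean of at least 1 FPKM. Of that set 4013 rose (36.1%) and 2330 fell, and the median was 0.15. In the same limma fit 32 of 41 members rose (78.0%), with a median of 0.79. In FPKM, all 3 tau-labelled libraries stood above all 3 control-labelled libraries for 30 members (68.2%). That pattern was seen in 32.5% of all tested genes and in 37.0% of tested protein-coding genes. All 3 tau-labelled libraries stood below for 1 member, a pattern seen in 23.6% of all tested genes. In bulk RNA, fewer cells of a kind and less RNA per cell cannot be told apart.

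Summed over the 45 members, the level was 687, 708 and 610 FPKM in tau-labelled libraries 1, 2 and 3, against 368, 397 and 445 FPKM in control-labelled libraries 1, 2 and 3. The groups did not overlap, and tau-labelled library 3 and control-labelled library 3 lay closest to each other. The mean was 668 ± 51.6 FPKM in tau-labelled libraries and 403 ± 39.3 FPKM in control-labelled libraries (SD, n = 3 each), a ratio of 1.66.

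**Figure D1:**
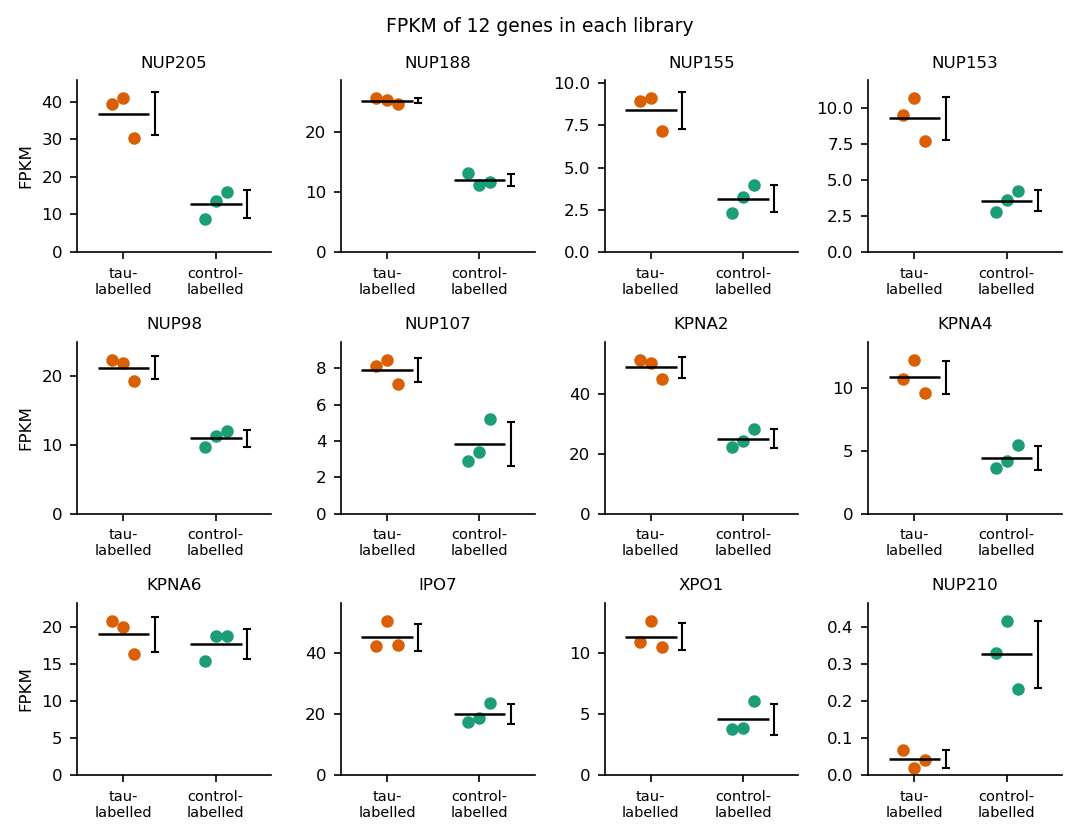
FPKM of leading members in each library, tau-labelled libraries on the left and control-labelled libraries on the right of each panel, one point per library, each panel with its own linear axis from 0. Lines are means and bars SD; 10 panels show the tau-labelled points above all control-labelled points, KPNA6 shows overlapping points, and NUP210 shows the opposite order at under 1 FPKM.

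Promoter sequence is shown for 6 members, chosen after values and motif matches were known, so they do not represent the motif content of the members. NUP107, NUP62, NUP50 and KPNA2 rose, KPNA6 did not pass and NUP210 fell. Each is the RefSeq GRCh38.p14 stretch from 250 bases before to 50 after the start of the gene, read 5′ to 3′ on the gene's strand. Capitals mark matches on either strand to 6 short motifs: the NRF1 core GCGCATGC, the E2F forms TTTCCCGC and TTTGGCGC, the cell cycle homology region (CHR) forms TTTGAA and TTCGAA, the CCAAT box, the ETS site CCGGAAGT and the E-box CACGTG. The NRF1 core is overlapped by its own reverse complement wherever 2 bases more complete the palindrome.

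The first 3 are nucleoporin genes whose promoters hold the NRF1 core, at chr12:68686728-68687027 on the + strand for NUP107, chr19:49929455-49929754 on the - strand for NUP62 and chr22:45163675-45163974 on the + strand for NUP50.
NUP107: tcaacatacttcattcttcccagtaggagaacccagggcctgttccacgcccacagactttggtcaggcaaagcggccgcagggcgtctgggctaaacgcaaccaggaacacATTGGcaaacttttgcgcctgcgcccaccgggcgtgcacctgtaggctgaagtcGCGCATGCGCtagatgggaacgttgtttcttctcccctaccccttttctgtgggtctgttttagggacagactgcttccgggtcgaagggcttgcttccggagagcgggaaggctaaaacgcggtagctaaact
NUP62: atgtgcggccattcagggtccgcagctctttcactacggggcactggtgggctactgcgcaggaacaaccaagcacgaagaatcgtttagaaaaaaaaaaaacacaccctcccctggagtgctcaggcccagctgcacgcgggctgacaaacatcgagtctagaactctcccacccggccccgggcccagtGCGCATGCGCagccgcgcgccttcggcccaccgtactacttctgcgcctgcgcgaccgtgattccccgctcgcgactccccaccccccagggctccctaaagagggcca
NUP50: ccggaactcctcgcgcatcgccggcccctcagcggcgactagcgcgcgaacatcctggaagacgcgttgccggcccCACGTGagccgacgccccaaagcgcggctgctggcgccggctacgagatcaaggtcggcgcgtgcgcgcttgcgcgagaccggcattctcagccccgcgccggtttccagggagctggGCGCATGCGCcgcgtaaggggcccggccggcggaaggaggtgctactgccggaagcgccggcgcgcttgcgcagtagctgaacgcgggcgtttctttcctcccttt

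The importin alpha pair sets a gene that rose beside one that did not, KPNA2 at chr17:68035485-68035784 and KPNA6 at chr1:32107806-32108105, both on the + strand; each holds 2 CCAAT boxes, and KPNA2 also holds CHR matches.
KPNA2: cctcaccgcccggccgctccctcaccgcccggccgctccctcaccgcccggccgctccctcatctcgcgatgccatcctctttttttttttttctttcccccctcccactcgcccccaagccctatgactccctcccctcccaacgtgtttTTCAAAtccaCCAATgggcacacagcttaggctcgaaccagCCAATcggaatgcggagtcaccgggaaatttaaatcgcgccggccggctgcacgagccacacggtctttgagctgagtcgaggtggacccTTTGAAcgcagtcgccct
KPNA6: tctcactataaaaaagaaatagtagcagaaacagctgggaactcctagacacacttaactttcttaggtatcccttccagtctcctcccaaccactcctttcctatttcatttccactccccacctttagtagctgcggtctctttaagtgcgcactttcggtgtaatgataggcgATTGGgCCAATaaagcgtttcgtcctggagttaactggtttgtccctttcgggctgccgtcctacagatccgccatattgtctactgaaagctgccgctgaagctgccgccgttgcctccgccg

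The last is NUP210, the member that fell, at chr3:13420273-13420572 on the - strand, with no match to any of the 6 motifs.
NUP210: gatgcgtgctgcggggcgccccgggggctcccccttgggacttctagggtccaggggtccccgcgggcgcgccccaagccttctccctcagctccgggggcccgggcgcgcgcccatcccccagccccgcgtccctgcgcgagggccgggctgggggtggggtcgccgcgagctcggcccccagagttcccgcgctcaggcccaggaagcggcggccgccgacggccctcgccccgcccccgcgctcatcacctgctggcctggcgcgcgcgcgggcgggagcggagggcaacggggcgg

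The NRF1 core was found in 4 of the 27 rising members with a promoter entry (14.8%), in none of the 11 that did not pass or fell, in 5.23% of promoters of all tested genes and in 3.27% of all 27305 promoters. The CCAAT box stood in 13 of the 27 rising members (48.1%) and in 6 of the 11 others (54.5%), where 36.6% of promoters of tested genes and 35.7% of all promoters held it. CHR matches stood in 7 rising members (25.9%) and 1 other (9.09%), where 11.4% of promoters of tested genes and 16.6% of all promoters held one. The ETS site stood in 5 rising members (18.5%) and 2 others (18.2%), where 8.25% of promoters of tested genes and 4.44% of all promoters held it. The E-box stood in 5 rising members (18.5%) and 1 other (9.09%), where 9.87% of promoters of tested genes and 7.43% of all promoters held it. An E2F form stood in 1 rising member (3.7%), where 3.56% of promoters of tested genes and 2.31% of all promoters held one. None of the motifs matched in KPNA1, IPO8 and XPO5, which rose, or in NUP133 and IPO13, which did not pass. These are letter matches in 300 bases and were not tested as sites.

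The Y complex forms the outer scaffold rings of the pore. Of its 6 members matched by name, 3 rose and 3 did not pass, with a median log2 fold change of 0.43. NUP107, a stem subunit (chr12:68686971-68745809), stood at 8.12, 8.47 and 7.17 FPKM in tau-labelled libraries, against 2.89, 3.37 and 5.20 FPKM in control-labelled libraries. NUP160, which lies at the hub of the Y (chr11:47778087-47848555), stood at 5.63, 6.41 and 4.18 FPKM in tau-labelled libraries, against 1.59, 2.63 and 3.24 FPKM in control-labelled libraries. Both genes had no overlap between labels, and control-labelled library 1 was the lowest of the 6. NUP107 rose 1.92-fold (log2 fold change 0.94, SE 0.18, adjusted p = 0.00272) and NUP160 rose 2.01-fold (1.01, SE 0.23, adjusted p = 0.00602). NUP43, a short-arm subunit (chr6:149724315-149749665), stood at 18.0, 17.9 and 12.8 FPKM in tau-labelled libraries, against 8.48, 8.90 and 10.7 FPKM in control-labelled libraries. It rose 1.6-fold (0.68, SE 0.14, adjusted p = 0.00425), with tau-labelled library 3 only a little above control-labelled library 3. The gene overlaps PCMT1 on the opposite strand, whose log2 fold change was 0.05, and reads in the overlap may be split either way because strand use in the counting is not stated. NUP133, another stem subunit, averaged 5.64 ± 0.631 FPKM in tau-labelled and 4.56 ± 0.569 FPKM in control-labelled libraries (SD, n = 3 each) and did not pass (log2 fold change 0.19, SE 0.13, adjusted p = 0.252). NUP85, which sits on the short arm, stood at 11.0, 11.6 and 12.7 FPKM in tau-labelled libraries and 11.4, 10.4 and 11.5 FPKM in control-labelled libraries, and its labels overlapped (log2 fold change -0.03, SE 0.11). NUP37, which binds NUP160, had a log2 fold change of 0.02 (SE 0.13, adjusted p = 0.93).

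The inner ring, which anchors the pore scaffold to the membrane and to the channel, held the scaffold genes with the largest log2 fold changes, NUP205 and NUP155. Of its 5 members, 4 rose, with a median log2 fold change of 0.98. NUP205 (chr7:135557917-135648757) stood at 39.4, 40.9 and 30.3 FPKM in tau-labelled libraries, against 8.70, 13.7 and 16.1 FPKM in control-labelled libraries. NUP188, its close structural relative (chr9:128947699-129007096), stood at 25.6, 25.4 and 24.7 FPKM in tau-labelled libraries, against 13.2, 11.2 and 11.6 FPKM in control-labelled libraries. NUP155, a membrane-contacting ring subunit (chr5:37288137-37371106), stood at 8.94, 9.09 and 7.14 FPKM in tau-labelled libraries, against 2.31, 3.23 and 3.96 FPKM in control-labelled libraries. For all 3 the lowest tau-labelled library was above the highest control-labelled library by more than the spread within either label. NUP205 rose 2.66-fold (1.41, SE 0.19, adjusted p = 0.000427), NUP155 2.45-fold (1.29, SE 0.17, adjusted p = 0.000381) and NUP188 1.93-fold (0.95, SE 0.11, adjusted p = 0.000182). SH3GLB2 overlaps NUP188 on the opposite strand and had a log2 fold change of -0.23. NUP35, another membrane-contacting subunit, rose 1.97-fold (0.98, SE 0.16, adjusted p = 0.00127) at 3.28 ± 0.356 FPKM in tau-labelled and 1.53 ± 0.188 FPKM in control-labelled libraries. NUP93, the linker that joins the ring's subunits, differed from the other 4: it stood at 9.96, 9.06 and 10.7 FPKM in tau-labelled libraries and 10.1, 8.70 and 8.72 FPKM in control-labelled libraries. Its labels overlapped, with a log2 fold change of -0.01 (SE 0.13, adjusted p = 0.961).

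**Figure D2:**
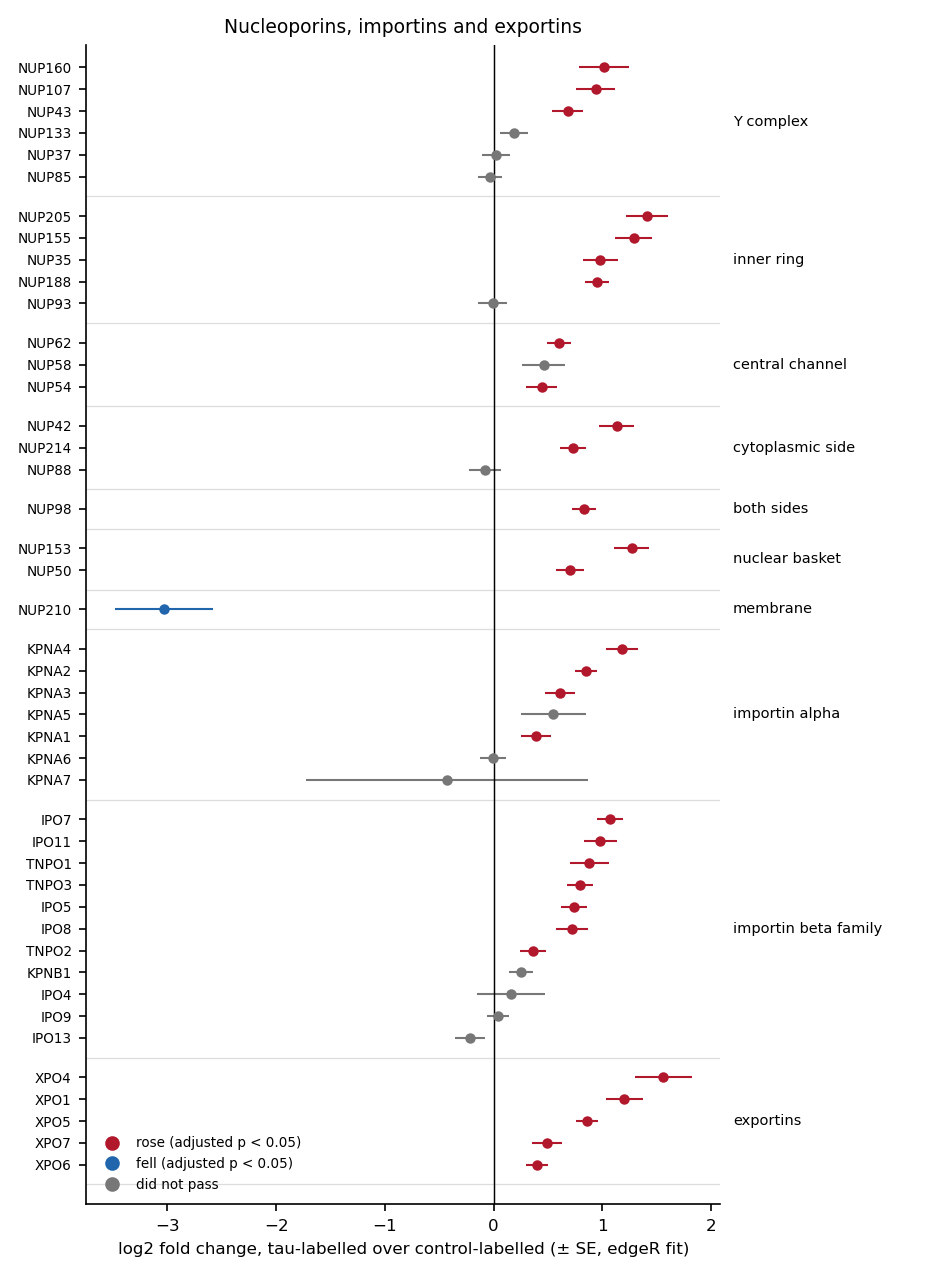
Log2 fold change of each tested member, tau-labelled over control-labelled libraries, with its standard error as a bar, grouped by role down the page. Exportins and basket genes all lie right of 0, NUP93, KPNA6, NUP85 and NUP88 lie close to 0, and NUP210 lies far left at -3.03.

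The channel genes encode the FG proteins of the central transport conduit, and 2 of 3 rose. NUP62, the channel's core FG protein (chr19:49906825-49929763), stood at 25.2, 24.6 and 25.5 FPKM in tau-labelled libraries, against 16.4, 14.3 and 15.1 FPKM in control-labelled libraries. It rose 1.51-fold (0.60, SE 0.11, adjusted p = 0.00185), and its 3 tau-labelled values were close together. ATF5, which overlaps it on the opposite strand, also rose (log2 fold change 1.2, adjusted p = 0.000116), and the reads of the pair cannot be told apart without strand. NUP54 stood at 5.81, 6.73 and 6.60 FPKM in tau-labelled libraries and 4.13, 3.74 and 5.12 FPKM in control-labelled libraries, rising 1.36-fold (0.44, SE 0.14, adjusted p = 0.0298). NUP58 stood at 4.04, 4.12 and 3.18 FPKM in tau-labelled libraries and 1.79, 2.40 and 3.45 FPKM in control-labelled libraries. Its labels overlapped through library 3 of each, and it did not pass (0.46, SE 0.2, adjusted p = 0.0918). Without control-labelled library 3 it passed at 0.70 (adjusted p = 0.00821), without control-labelled library 1 it was 0.27 and did not pass, and limma on log2(FPKM + 0.5) called it at 0.52 (adjusted p = 0.0459).

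On the cytoplasmic face, where messenger RNA is released, 2 of 3 genes rose. NUP42, which helps release exported messenger RNA, stood at 6.68, 6.2 and 5.43 FPKM in tau-labelled libraries and 2.03, 2.57 and 3.10 FPKM in control-labelled libraries, a 2.19-fold rise (1.13, SE 0.16, adjusted p = 0.000485). NUP214, a large FG protein of the cytoplasmic filaments, stood at 8.10, 7.33 and 7.90 FPKM in tau-labelled libraries and 4.67, 4.40 and 3.84 FPKM in control-labelled libraries, a 1.66-fold rise (0.73, SE 0.12, adjusted p = 0.00132). Neither gene's labels overlapped. NUP88, which binds NUP214, was at 6.84, 7.2 and 5.50 FPKM in tau-labelled libraries and 5.29, 6.06 and 7.79 FPKM in control-labelled libraries. Its labels overlapped (log2 fold change -0.08, SE 0.15, adjusted p = 0.685), and its opposite-strand neighbours RABEP1 (which rose) and RPAIN had log2 fold changes of 0.64 and -0.32.

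NUP98, an FG protein found on both faces of the pore (chr11:3671083-3797792), stood at 22.4, 22.0 and 19.3 FPKM in tau-labelled libraries, against 9.64, 11.3 and 12 FPKM in control-labelled libraries, with no overlap. It rose 1.78-fold (0.83, SE 0.11, adjusted p = 0.000297). The NUP98 precursor also gives a Y complex protein, and the gene was not counted in the Y complex above. Both nuclear basket genes rose. NUP153, which anchors the basket (chr6:17615035-17706925), stood at 9.55, 10.7 and 7.72 FPKM in tau-labelled libraries, against 2.81, 3.62 and 4.26 FPKM in control-labelled libraries. NUP50, a basket protein that helps importins let go of cargo (chr22:45163925-45188017), stood at 5.81, 6.15 and 4.77 FPKM in tau-labelled libraries, against 2.86, 3.03 and 3.6 FPKM in control-labelled libraries. Tau-labelled library 2 was the highest for both, and the labels did not overlap. NUP153 rose 2.41-fold (1.27, SE 0.16, adjusted p = 0.000265) and NUP50 rose 1.63-fold (0.70, SE 0.13, adjusted p = 0.00189).

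NUP210, a membrane-spanning pore protein known to be expressed in some cell types and not in others (chr3:13316235-13420322), was the single member that fell. Its counts were 36, 10 and 24 reads in tau-labelled libraries, against 185, 220 and 131 reads in control-labelled libraries, which correspond to 0.0424 ± 0.0246 FPKM and 0.326 ± 0.0912 FPKM (SD, n = 3 each). The labels did not overlap, and all 6 values lay under 1 FPKM. The gene fell 8.2-fold (log2 fold change -3.03, SE 0.45, adjusted p = 0.000643). Its relative NUP210L had 0, 5 and 0 reads in tau-labelled libraries and 0 reads in every control-labelled library, and was not tested.

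Importin alphas are the adaptors that recognise classical nuclear localisation signals and hand cargo to KPNB1. Of 7 genes, 4 rose and 3 did not pass, with a median log2 fold change of 0.55. KPNA2 (chr17:68035636-68047364), the most abundant, stood at 51.2, 50.2 and 44.7 FPKM in tau-labelled libraries, against 22.1, 24.3 and 28.3 FPKM in control-labelled libraries. KPNA4 (chr3:160495007-160565571) stood at 10.7, 12.2 and 9.57 FPKM in tau-labelled libraries, against 3.63, 4.15 and 5.48 FPKM in control-labelled libraries. Neither overlapped between labels. KPNA4 rose 2.26-fold (1.18, SE 0.15, adjusted p = 0.000255) and KPNA2 rose 1.81-fold (0.85, SE 0.1, adjusted p = 0.000244). KPNA3, the close paralog of KPNA4, stood at 12.4, 13.5 and 12.2 FPKM in tau-labelled libraries and 6.43, 7.01 and 9.66 FPKM in control-labelled libraries, and rose 1.52-fold (0.61, SE 0.14, adjusted p = 0.00731). KPNA1 averaged 19.4 ± 2.21 FPKM in tau-labelled and 13.7 ± 2.75 FPKM in control-labelled libraries and passed narrowly (0.39, SE 0.14, adjusted p = 0.0495). KPNA6, of the same subfamily as KPNA1 and KPNA5 (chr1:32108056-32176563), stood at 20.7, 19.9 and 16.3 FPKM in tau-labelled libraries and 15.4, 18.8 and 18.8 FPKM in control-labelled libraries. Its labels overlapped, with a log2 fold change of -0.01 (SE 0.12, adjusted p = 0.939). KPNA5 had counts of 223, 369 and 316 in tau-labelled libraries and 133, 164 and 294 in control-labelled libraries, and KPNA7, a germ-line and early-embryo importin, had counts of 11, 0 and 15 in tau-labelled and 16, 16 and 0 in control-labelled libraries, and neither passed. Without control-labelled library 3, KPNA5 was called higher (0.88, adjusted p = 0.0319).

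Within the summed importin alpha level, the make-up of the pool differed between labels. KPNA2 held 44, 43.0 and 44.7% of it in tau-labelled libraries and 37.8, 35.1 and 36.1% in control-labelled libraries. KPNA4 held 9.23, 10.4 and 9.56% in tau-labelled libraries and 6.21, 5.99 and 7.00% in control-labelled libraries. KPNA6 moved the other way, at 17.8, 17.1 and 16.2% in tau-labelled libraries and 26.4, 27.1 and 24.0% in control-labelled libraries. KPNA6 itself averaged 19.0 FPKM in tau-labelled and 17.6 FPKM in control-labelled libraries (log2 fold change -0.01 in the fit on counts). The summed importin alpha FPKM had a ratio of 1.62 between labels. KPNA1 also held less, at 18.0, 17.5 and 16.9% in tau-labelled libraries and 18.1, 21.2 and 20.1% in control-labelled libraries. No label overlap occurred for the shares of KPNA2, KPNA4, KPNA6 and KPNA1, which are descriptions of FPKM ratios and were not tested. KPNA3 held 11.5 ± 0.762% in tau-labelled and 11.2 ± 1.11% in control-labelled libraries (SD, n = 3 each).

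**Figure D3:**
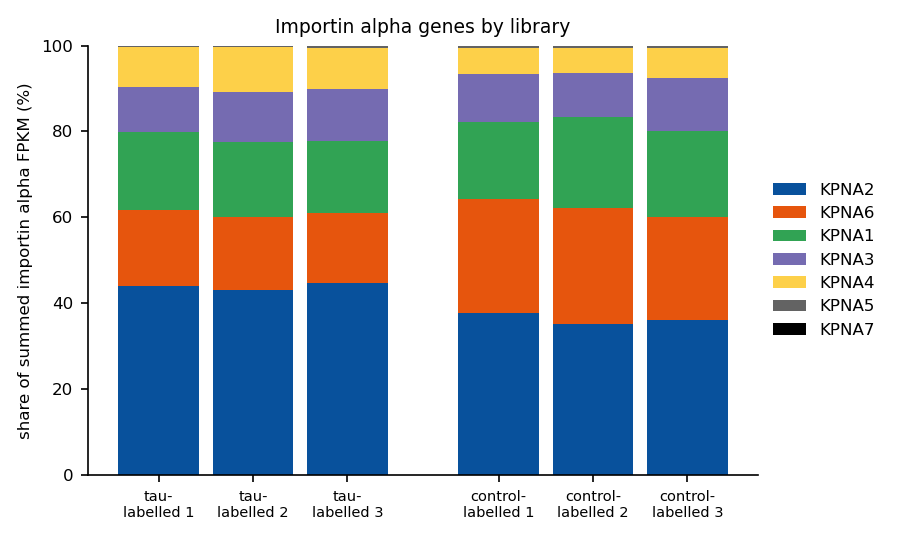
Share of the summed importin alpha FPKM held by each gene, in percent, one bar per library with tau-labelled libraries on the left. KPNA2 and KPNA4 fill more of the tau-labelled bars, and KPNA6 more of the control-labelled bars.

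The importin beta family binds cargo directly or through importin alpha and carries it through the FG channel. Of 11 genes, 7 rose and 4 did not pass, with a median log2 fold change of 0.72. IPO7, a carrier of ribosomal proteins and, with KPNB1, histone H1 (chr11:9384652-9448127), stood at 42.3, 50.5 and 42.9 FPKM in tau-labelled libraries, against 17.5, 18.8 and 23.7 FPKM in control-labelled libraries. TNPO3, which imports splicing factors rich in serine and arginine (chr7:128954180-129055173), stood at 49.5, 48.4 and 38.5 FPKM in tau-labelled libraries, against 20.8, 25.7 and 26.0 FPKM in control-labelled libraries. Both were well separated between labels. IPO7 rose 2.09-fold (1.07, SE 0.12, adjusted p = 0.000177) and TNPO3 rose 1.73-fold (0.79, SE 0.12, adjusted p = 0.000759). IPO11, which imports a ubiquitin-conjugating enzyme, stood at 5.00, 6.39 and 5.85 FPKM in tau-labelled libraries and 2.22, 2.61 and 3.25 FPKM in control-labelled libraries, and rose 1.97-fold (0.98, SE 0.15, adjusted p = 0.000801). IPO5, which imports histones and ribosomal proteins, rose 1.67-fold (0.74, SE 0.12), IPO8 rose 1.64-fold (0.72, SE 0.15), and TNPO1, which imports RNA-binding proteins with proline-tyrosine signals, rose 1.84-fold (0.88, SE 0.18). TNPO2, the paralog of TNPO1, rose 1.28-fold (0.36, SE 0.12, adjusted p = 0.0363), the least of the 7 here but not with the offsets for GC content and length, where it was 0.54 and TNPO1, IPO5 and IPO8 were lower.

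KPNB1, the partner of all importin alphas (chr17:47649476-47685505), did not pass. It stood at 49.0, 49.6 and 39.3 FPKM in tau-labelled libraries, against 31.2, 35.2 and 40.3 FPKM in control-labelled libraries. Tau-labelled library 3 fell below control-labelled library 3, so the labels overlapped, and the log2 fold change was 0.25 (SE 0.11, adjusted p = 0.102). It was called higher without tau-labelled library 3 (0.34, adjusted p = 0.0286), with scaling by library size alone (0.37, adjusted p = 0.0416) and with limma on log2(FPKM + 0.5) (0.37, adjusted p = 0.031). KPNB1 made up 18.0% of the summed importin beta level in tau-labelled and 22.4% in control-labelled libraries, and IPO7 made up 17.8% in tau-labelled and 12.5% in control-labelled libraries. IPO4 and IPO9, which import histones, and IPO13, which carries cargo both ways, had log2 fold changes of 0.16 (SE 0.31), 0.04 (SE 0.1) and -0.22 (SE 0.14) and did not pass. A row on the same strand that overlaps IPO4 held 69.2% as many reads as IPO4, so IPO4's counts are uncertain.

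All 5 exportins matched by name rose, with a median log2 fold change of 0.86. XPOT, the transfer RNA exportin, lies outside the name rule and did not pass (0.22, SE 0.16, adjusted p = 0.285). It stood at 33.4, 36.6 and 26.6 FPKM in tau-labelled libraries and 19.4, 25.9 and 31.1 FPKM in control-labelled libraries, with overlap. XPO1, the exporter of leucine-rich signal cargo (chr2:61476032-61538741), stood at 10.9, 12.6 and 10.5 FPKM in tau-labelled libraries, against 3.79, 3.85 and 6.06 FPKM in control-labelled libraries. XPO5, which exports microRNA precursors, stood at 6.68, 6.68 and 6.14 FPKM in tau-labelled libraries, against 3.10, 3.26 and 3.55 FPKM in control-labelled libraries. XPO4, which carries the translation factor eIF5A out of the nucleus, stood at 3.09, 3.19 and 2.63 FPKM in tau-labelled libraries, against 0.518, 0.972 and 1.30 FPKM in control-labelled libraries. Every tau-labelled value of the 3 genes was above every control-labelled value. POLR1C overlaps XPO5 on the opposite strand, held 50.4% as many reads and had a log2 fold change of 0.28. XPO4 rose 2.95-fold (1.56, SE 0.26, adjusted p = 0.00114), XPO1 2.29-fold (1.2, SE 0.17, adjusted p = 0.000463) and XPO5 1.81-fold (0.86, SE 0.1, adjusted p = 0.000216). XPO6, the actin exporter and the most abundant of the family, stood at 33.8, 32.8 and 32.1 FPKM in tau-labelled libraries and 24.0, 21.9 and 22.9 FPKM in control-labelled libraries, a 1.32-fold rise (0.40, SE 0.1, adjusted p = 0.00834). XPO7, a broad-cargo carrier, averaged 16.1 ± 2.03 FPKM in tau-labelled and 10.6 ± 1.93 FPKM in control-labelled libraries, a 1.41-fold rise (0.49, SE 0.14, adjusted p = 0.0183). In the summed exportin level, XPO1 held 16.2% in tau-labelled and 10.7% in control-labelled libraries, and XPO6 held 47.3% in tau-labelled and 54.5% in control-labelled libraries.

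By summed FPKM, ratios of tau-labelled to control-labelled means were 2.21 for the basket, 2.16 for the inner ring, 1.65 for exportins, 1.62 for importin alphas, 1.6 for importin betas, 1.59 for the channel, 1.54 for the cytoplasmic side and 1.40 for the Y complex. The roles with 1 measurable gene had ratios of 1.93 for NUP98 and 0.13 for NUP210. The inner ring sum averaged 83.7 ± 6.91 FPKM in tau-labelled and 38.7 ± 2.96 FPKM in control-labelled libraries, and the exportin sum 69.8 ± 4.03 FPKM in tau-labelled and 42.3 ± 3.07 FPKM in control-labelled libraries (SD, n = 3 each). Ratios were not tested, and they compare sums across genes of unequal level. FPKM sums, here and over all 45 members, lack the between-library scaling of the fit on counts. With library size alone, the median log2 fold change over all tested genes was 0.12, beside 0.0044 with that scaling.

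Genes that work with these members but carry other names were given by a list of 40, of which 39 were in the table. In this partner list 16 rose (41.0%), 4 fell (10.3%) and 19 did not pass, where 21.3% of all tested genes rose and 21.4% fell. The partners' median log2 fold change was 0.22, beside 0.0044 over all tested genes. CSE1L, the exportin that returns importin alpha to the cytoplasm, stood at 72.3, 83.5 and 78.3 FPKM in tau-labelled libraries, against 22.8, 19.8 and 31 FPKM in control-labelled libraries. It rose 2.94-fold (1.56, SE 0.15, adjusted p = 7.22e-05). RANBP2, the large cytoplasmic filament protein, stood at 5.97, 7.33 and 5.69 FPKM in tau-labelled libraries, against 1.51, 2.19 and 2.73 FPKM in control-labelled libraries. It rose with a log2 fold change of 1.45 (SE 0.19), but near-identical copies of it make its counts uncertain. TPR, of the basket, and AHCTF1, which seeds pore assembly, rose with log2 fold changes of 1.28 (SE 0.24) and 1.25 (SE 0.18). RCC1, the Ran exchange factor on chromatin, stood at 39.7, 39.4 and 46.1 FPKM in tau-labelled libraries and 24.3, 22.6 and 22.3 FPKM in control-labelled libraries, a log2 fold change of 0.74 (SE 0.12). SENP1, a SUMO protease of the pore, rose with a log2 fold change of 0.95 (SE 0.19).

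RAN itself stood at 125, 121 and 128 FPKM in tau-labelled libraries, against 111, 107 and 109 FPKM in control-labelled libraries. Its labels did not overlap in FPKM, yet it did not pass (log2 fold change 0.08, SE 0.09, adjusted p = 0.538). SEC13, a Y complex subunit that also serves the COPII coat, fell 2.13-fold (-1.09, SE 0.13, adjusted p = 0.000192), standing at 29.7, 32.0 and 36.9 FPKM in tau-labelled libraries and 64.0, 70.6 and 59.0 FPKM in control-labelled libraries. RANBP3L stood at 0.0126, 0.0405 and 0.087 FPKM in tau-labelled libraries, against 0.545, 0.745 and 0.98 FPKM in control-labelled libraries, with no overlap. The remaining partners that fell besides SEC13 were RANBP3L (log2 fold change -4.07, SE 0.53), DDX19B, a messenger RNA export helicase with a near-identical copy that leaves its counts uncertain (-1.83, SE 0.25), and AKIRIN2, which serves nuclear import of proteasomes (-0.35, SE 0.11, adjusted p = 0.0247, ranging from 0.00754 to 0.89 over the alternatives).

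**Figure D4:**
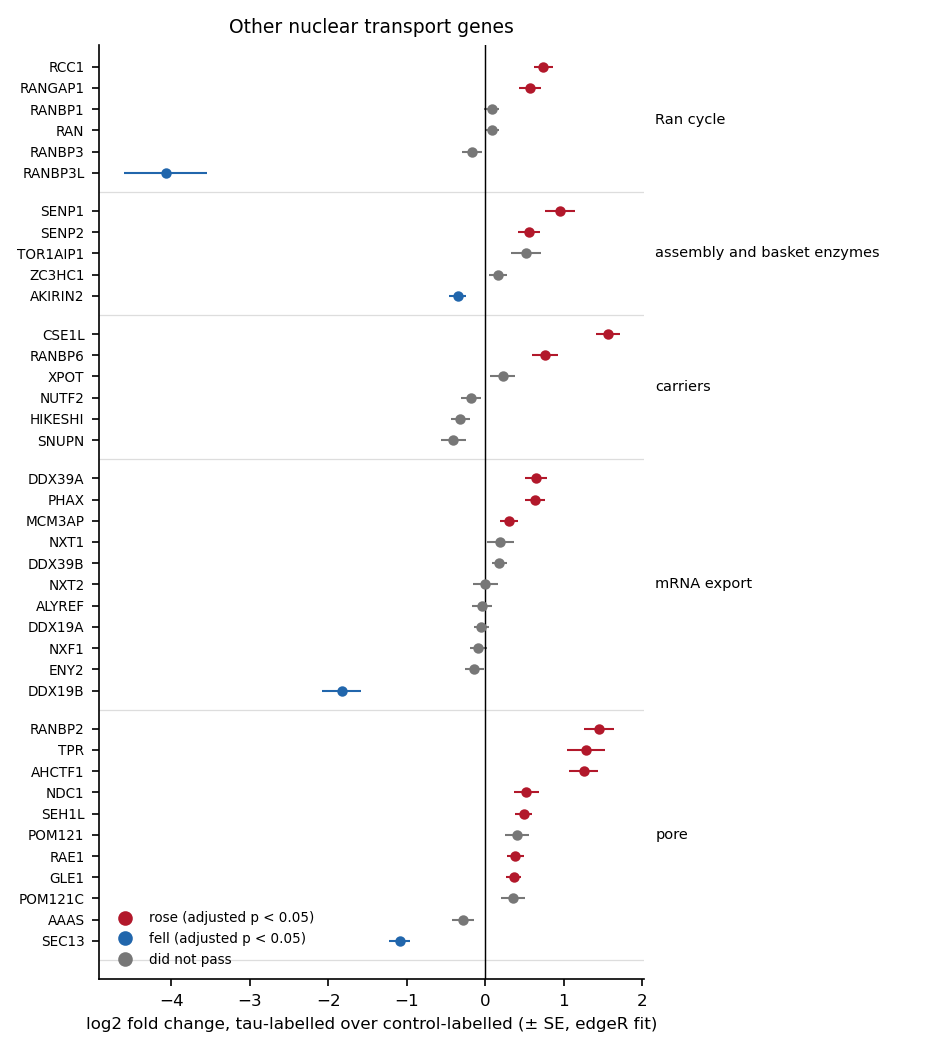
Log2 fold change of each tested partner gene, tau-labelled over control-labelled libraries, with standard errors, grouped by class. CSE1L, RANBP2, TPR and AHCTF1 lie farthest right, RAN lies close to 0, and SEC13, DDX19B and RANBP3L lie left of 0.

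The members' GC content and length differed from the typical gene. Their longest transcripts had a median GC content of 44.1%, where all tested genes had 48.6%, and a median length of 5370 bases, where all had 3109. Across the 44 members, log2 fold change correlated with GC content at a Spearman rho of -0.49, and across all 17547 genes with both values at -0.31; genes of one library pair are not independent and share depth. With offsets for GC and length, 27 members rose (61.4%) and 3 fell, and the median was 0.48. Over the 17547 genes of that fit 4432 rose (25.3%) and 4104 fell, and the median was 0.03. KPNA1 then had a log2 fold change of -0.08, TNPO1 of 0.26 (adjusted p = 0.0787) and NUP54 of 0.19 (adjusted p = 0.185), so these 3 calls were lost. NUP37 and IPO9 became falls at -0.27 and -0.22. Calls held but values shrank by more than 1.5 times for NUP107 (0.52), NUP43 (0.40), NUP35 (0.63), NUP50 (0.42), KPNA4 (0.63), KPNA3 (0.25), IPO7 (0.55), IPO11 (0.60), IPO5 (0.33), IPO8 (0.37), XPO1 (0.68) and XPO4 (1.0). Other values grew, to 0.90 for NUP62, 0.54 for TNPO2 and 0.58 for XPO6, all still called, and to 0.53 for IPO4, which did not pass (adjusted p = 0.185). Among partners, RANBP2 had a log2 fold change of 0.87, AHCTF1 of 0.74 and TPR of 0.76 with the offsets, all still called. Under the offsets the inner ring had 4 of 5 genes called higher (median 0.87), the exportins 5 of 5 (median 0.68) and the importin alphas 3 of 7 (median -0.08). Whether GC or length accounts for the fold changes was not tested.

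**Figure D5:**
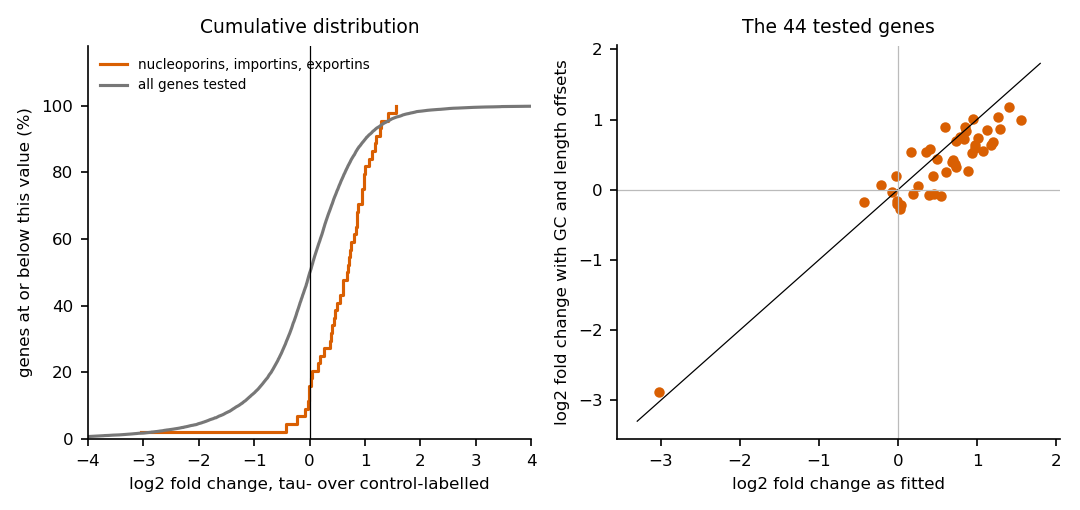
Left, the cumulative share of genes (%) at or below each log2 fold change (tau-labelled over control-labelled), for the members and for all tested genes; right, each member's log2 fold change with and without offsets for GC content and length. The members' curve has its median at 0.69, and many members lie nearer 0 with the offsets, KPNA1 at -0.08.

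Leaving out 1 library ended 5 calls, those with the smallest fold changes. KPNA1 no longer passed without tau-labelled library 1 or 2 or control-labelled library 1 or 2 (adjusted p 0.157, 0.136, 0.136 and 0.085). NUP54 no longer passed without tau-labelled library 2 or 3 or control-labelled library 1 or 2 (adjusted p 0.099, 0.0784, 0.0553 and 0.133). TNPO2 no longer passed without tau-labelled library 1 or 3 or control-labelled library 2 or 3 (adjusted p 0.0885, 0.0866, 0.129 and 0.132). XPO6 no longer passed without control-labelled library 2 (adjusted p = 0.0658), and XPO7 no longer passed without tau-labelled library 1 (adjusted p = 0.0775) or tau-labelled library 2 (adjusted p = 0.0624). The other 25 rising members and NUP210 were called without any 1 library.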

How the data were processed

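RNA was measured in 3 tau-labelled and 3 control-labelled libraries of U87-GBM cells. The authors deposited a table of raw counts and FPKM values per gene, 1 column of each per library; per the submitters' processing notes, reads were handled with cutadapt 1.9, HISAT2 2.2.1 and StringTie 2.1.6 on GRCh38, and DESeq2 and edgeR are named without a role. Neither the annotation release nor the counting tool and its use of strand was given in the sources used here. Here the deposited counts were tested with edgeR 4.0.16 (R 4.3.3; TMM scaling, quasi-likelihood test, Benjamini-Hochberg adjustment) over genes passing a filter with a minimum count of 10 and total of 15; the deposited FPKM values give levels per length. The fit was tested on counts simulated from its own model, where it called large changes more often than small ones. Such counts cannot show whether the model suits these libraries. Alternatives used limma 3.58.1, DESeq2 1.42.0, other scalings and filters, offsets for GC content and length from the longest GENCODE transcript, a replicate block and leaving out each library. The members, roles, marker and partner lists were chosen with earlier results of these data known. Per-library values are given for the 3 members with the smallest p and the most abundant member of each role. Partners are named by smallest p, up to 6 in each direction, with RAN, RCC1, CSE1L and RANBP2, and XPOT was added after values were seen. Which partners and other members got per-library values was chosen after values were seen. Groups follow the treatment label. Promoters came from the RefSeq table for GRCh38.p14, which held 39 of the 45 members (not NUP43, KPNA4, KPNA5, KPNA7, KPNB1 and XPO7). Protein features were not run. RANBP17 and PTPRC were not analysed here.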

Additional observations from a re-analysis of the deposited data

How the results depend on the processing

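Of the 30 rising members, 24 were called higher under each of the 21 alternatives that gave a value; KPNA1, NUP54, TNPO1, TNPO2, XPO6 and XPO7 were not, and NUP210 fell in all 17 that gave it a value, between -3.50 and -2.68. Leaving out 1 library gave 26 to 31 rising members. Deviations of same-numbered libraries correlated at r of -0.0375, -0.0108 and -0.0938, and those of differently numbered libraries at -0.0763 to 0.107. With 3 libraries per label, these values cannot show whether the numbers pair the samples. With a replicate block 27 members rose (61.4%, where 17.7% of all genes rose) and 1 fell, with a median of 0.68. The members' median was 0.48 with GC and length offsets, 0.45 with the block and offsets, and 0.83 with limma on log2(FPKM + 0.1). Members that fell numbered 3 with offsets, 2 with block and offsets, and 0 with limma on FPKM or at a mean FPKM of 5 or more, settings that leave NUP210 out. Partners that fell numbered 2 at FPKM of at least 5 and 7 with upper-quartile scaling. Over all genes 2317, 2330 and 2336 fell with limma at pseudocounts 0.1, 0.5 and 1, where 11129 genes were tested. At FPKM of at least 5, where 6182 genes were tested, 1757 rose and 1708 fell.

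Signs changed with GC and length offsets, without and with the block alike, for IPO13 (0.06), IPO9 (-0.22), KPNA1 (-0.08), NUP133 (-0.06), NUP37 (-0.27) and NUP85 (0.20), and for KPNA5 (-0.09 and -0.08), NUP58 (-0.06 and -0.05) and RAN (-0.06 and -0.05). With upper-quartile scaling IPO9 (-0.06), NUP37 (-0.08) and RAN (-0.03) changed sign. With library size alone KPNA6 (0.10), NUP85 (0.08), NUP88 (0.03) and NUP93 (0.10) did, and so with limma (0.10, 0.08, 0.03 to 0.04, and 0.10 to 0.11) and, at FPKM of at least 5, KPNA6 (0.03), NUP85 (0.01) and NUP93 (0.03). Leaving out 1 library gave IPO4 -0.12 to 0.43, IPO9 -0.0033 to 0.09, KPNA6 -0.08 to 0.07, KPNA7 -1.04 to 0.14, NUP37 -0.05 to 0.10, NUP85 -0.11 to 0.02, NUP88 -0.18 to 0.04 and NUP93 -0.09 to 0.09. Of these, KPNA1 alone was called in the reported fit; the cause was not tested. Low counts limit NUP210, KPNA5 and KPNA7.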

Other observations

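Rows with the same name stems that do not code for protein numbered 16, of which 9 were pseudogenes and 7 long non-coding RNAs, and 3 were tested. NUP50-DT, a long non-coding RNA that starts 144 bases from the start of NUP50 on the other strand (chromosome 22, 45133020 to 45163781), had counts of 140, 116 and 139 in tau-labelled libraries and 321, 386 and 343 in control-labelled libraries. It fell 2.84-fold (log2 fold change -1.50, SE 0.2, adjusted p = 0.000363 in edgeR's quasi-likelihood test), whereas NUP50 rose with a log2 fold change of 0.70. KPNB1-DT, which starts 60 bases from KPNB1, had counts of 34, 34 and 16 in tau-labelled libraries and 21, 14 and 9 in control-labelled libraries and did not pass (0.84, adjusted p = 0.303). NUP153-AS1 had a log2 fold change of -0.01 (adjusted p = 0.988). No pseudogene row exceeded 30 reads in a library.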
